A study of Homo sapiens with 6 samples.

Results

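The anaphase-promoting complex, or APC/C, is the ubiquitin ligase that ends mitosis, and 10 of its genes were followed in A2780 ovarian cancer cells given DMSO or the MTH1 inhibitor TH588. They were taken by symbol from the 58336 genes of the deposited count table: the activators *CDC20* and *FZR1*, the ubiquitin-conjugating enzymes *UBE2C* and *UBE2S*, the inhibitor *FBXO5*, and the core subunits *CDC16*, *CDC23*, *CDC27*, *ANAPC1* and *ANAPC2*. All 10 were found and all 10 passed the filter on low counts. The study compared 3 libraries of cells treated with DMSO vehicle and 3 of cells treated with TH-588 (TH588) at 6 µM for 48 h, from 3 independent experiments (replicates A, B and C) and with polyA RNA. Both groups are the same line in the same medium, which contained insulin, and no allele or transgene separates them. TH588 inhibits MTH1, an enzyme that clears oxidized nucleotides. The study also reports that A2780 cells given MTH1 inhibitors stalled for a time in mitosis, though less than with paclitaxel. The comparison addressed which transcripts respond to TH588.

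APC/C joins ubiquitin to mitotic cyclins, to securin and to other mitotic proteins, which the proteasome then destroys. CDC20 switches the complex on in early mitosis once the spindle checkpoint is satisfied, and CDH1, the product of *FZR1*, keeps it active from late mitosis through G1. UBE2C places the first ubiquitins on a substrate, UBE2S extends the chain, and EMI1, the product of *FBXO5*, blocks the complex from S phase until mitosis. *CDC20*, *UBE2C* and *FBXO5* are periodic transcripts of cycling cells, and UBE2C and CDC20 are often abundant in proliferating tumours.

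The bases before the start are shown for *CDC20* and *FBXO5*, 2 members that fell. Those of *CDC23*, a core subunit that fell less, and of *FZR1*, which was not called, are shown too. The sequences are RefSeq promoter windows on GRCh38.p14, read 5′ to 3′ on the strand of the gene and shortened to at most 240 bases without exons of the deposited gene models. They lie at chr1:43358741-43358954 (plus strand, *CDC20*), chr6:152983042-152983233 (minus strand, *FBXO5*), chr5:138213344-138213563 (minus strand, *CDC23*) and chr19:3506071-3506272 (plus strand, *FZR1*). Capitals mark matches, on either strand, to 3 kinds of motif. The first is the cell cycle genes homology region (CHR), searched as TTTGAA and also as TTCGAA, and the second is the CCAAT box. The third is the E2F type, with TTCCCGC as its first form, then TTGGCGC as another, next TTCGCGC and finally TTGCCGC.
CDC20: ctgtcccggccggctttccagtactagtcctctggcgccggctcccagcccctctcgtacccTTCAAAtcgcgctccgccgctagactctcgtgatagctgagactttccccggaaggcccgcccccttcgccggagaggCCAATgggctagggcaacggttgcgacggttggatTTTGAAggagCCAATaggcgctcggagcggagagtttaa
FBXO5: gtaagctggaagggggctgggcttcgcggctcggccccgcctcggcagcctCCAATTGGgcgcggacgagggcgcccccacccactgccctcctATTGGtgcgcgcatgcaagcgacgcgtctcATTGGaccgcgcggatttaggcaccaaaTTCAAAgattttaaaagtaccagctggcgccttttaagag
CDC23: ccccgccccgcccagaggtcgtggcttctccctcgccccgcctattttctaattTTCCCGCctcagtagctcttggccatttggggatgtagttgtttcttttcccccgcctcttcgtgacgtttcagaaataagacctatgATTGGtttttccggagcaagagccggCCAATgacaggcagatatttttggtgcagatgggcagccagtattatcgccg
FZR1: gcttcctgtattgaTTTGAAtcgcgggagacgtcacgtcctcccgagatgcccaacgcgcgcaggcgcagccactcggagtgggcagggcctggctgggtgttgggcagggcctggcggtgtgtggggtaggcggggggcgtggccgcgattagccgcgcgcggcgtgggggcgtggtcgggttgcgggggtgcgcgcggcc

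Windows were matched for all members but *UBE2C*, 11 windows for 9 genes, since *FZR1* and *FBXO5* have 2 starts each. Over the 250 bases before the start, CHR letters stood in 14.3% of 35116 RefSeq windows, CCAAT letters in 32.0% and the E2F-type letters in 10.9%. *CDC20* held CHR letters 65 and 178 bases before its start and CCAAT letters 55 and 100 bases before it. *FBXO5* held CHR letters 40 bases before 1 of its starts, with 4 CCAAT matches further up, of which 2 overlap in a palindrome, and its other window held none of the 3 kinds. *FZR1* also held CHR letters, 226 bases before the start shown. No CHR letters stood before the start of *UBE2S*, *CDC23*, *CDC27* or *ANAPC1*. Whether such letters bear on the falls was not tested. *CDC23* held 3 CCAAT matches, of which the one 17 bases before the start is not shown above, *UBE2S*, *CDC16* and *CDC27* held 1 each, and E2F-type letters stood before *CDC16*, *CDC23*, *CDC27* and the second start of *FZR1*. *ANAPC2* held none, and the only match of *ANAPC1* lay after its start. A match describes letters only, and binding at these sites was not measured.

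Total counts ran from 28537837 to 99074175 per library, TH588 replicate A being the shallowest, and *SNORD3A* took 21.9% of that library's counts against 7.68% to 12.95% of the others. Counts were normalized with TMM and are given as CPM, or as FPKM (CPM per kilobase of exon) where genes are compared with each other. The smallest count of any member was 270, of *FBXO5* in that library, so no member was near the limit of detection. The summed level of all 9 epithelial ovarian markers was 3.82 to 4.60 CPM with DMSO and 10.9 to 12.2 CPM with TH588. Only *EPCAM* and *KRT18* among them passed the filter, and both were called higher, from 0.644 ± 0.212 to 4.74 ± 0.350 CPM and from 3.56 ± 0.373 to 6.54 ± 0.435 CPM (SD, n = 3 each). *PAX8*, a marker of many ovarian carcinomas, had 0 counts in all 3 DMSO libraries. The summed level of 9 markers of other cell types was 1584 to 1913 CPM with DMSO and 1872 to 2611 CPM with TH588. Nearly all of it was the collagen gene *COL3A1*, which was called higher with overlapping groups, from 1733 ± 165 to 2279 ± 378 CPM (SD, n = 3 each). The other fibroblast markers were far lower and not called, *COL1A1* at 3.97 ± 0.790 and *DCN* at 6.99 ± 0.0303 CPM with DMSO (SD, n = 3 each). *CD14*, a monocyte marker, was called higher from 0.0649 ± 0.0254 to 0.336 ± 0.0688 CPM (SD, n = 3 each), and *CD3E*, a T cell marker, had 0 counts in every library. The summed level of the 4 cycling-cell markers *MKI67*, *TOP2A*, *PCNA* and *MCM2* was 2819 to 3055 CPM with DMSO and 954 to 1203 CPM with TH588. These marker values stand beside every result that follows, and their part in them was not tested. In bulk RNA, fewer cells in the phase that uses a gene and less of its RNA per cell cannot be told apart.

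After TH588, 7 of the 10 members were lower at an adjusted p under 0.05 by edgeR's quasi-likelihood test, 3 were not called and 0 were higher. Among all 15844 genes tested, 49.6% were called, 25.3% lower and 24.2% higher. With library size only, 17.6% of all genes were lower and 60.4% of all called genes were higher, against 48.9% with TMM, and the same 7 members were called. All 10 members had a log2 fold change below 0, so none could be called higher at a looser threshold. DESeq2 and limma-voom also called 0 members higher. The median log2 fold change of the members was -0.65, against 0.02 over all genes tested. The median of all genes moved to 0.13 with library size only, where that of the members was -0.55. *FBXO5* had the lowest value, followed by *UBE2C* and *CDC20*, and *CDC23* had the smallest change of the 7. *ANAPC1*, *UBE2S* and *CDC27* lay between them, in an order that turned without DMSO replicate A or without any one TH588 library, and differences between members were not tested.

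**Figure D1:**
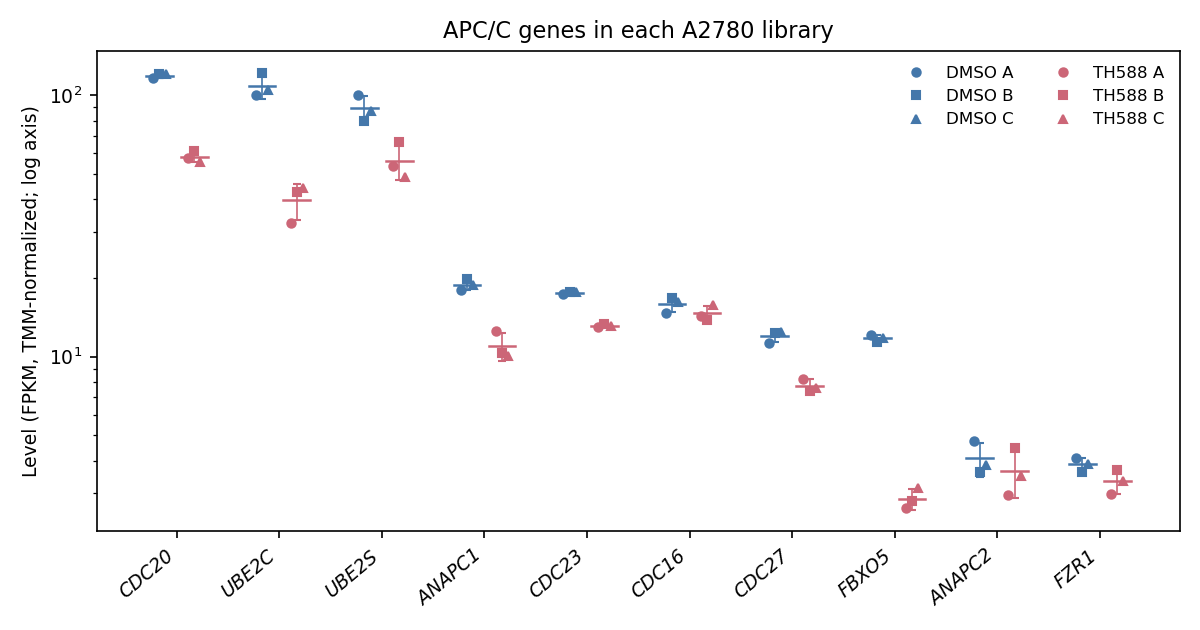
Level of each member in each of the 6 libraries, in TMM-normalized FPKM on a log axis, with members ordered by their DMSO mean; symbols stand for replicates, horizontal lines for means and bars for SD (n = 3). *FBXO5* fell from 11.7 to 2.86 FPKM and *UBE2C* from 109 to 39.6, while the groups overlap for *CDC16*, *ANAPC2* and *FZR1*.

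Per length, *CDC20*, *UBE2C* and *UBE2S* were far above the rest in DMSO cells, at 119 ± 2.39, 109 ± 11.7 and 89.1 ± 10.6 FPKM (SD, n = 3 each). The libraries of *CDC20* and *UBE2C* overlapped in level, as did those of *UBE2C* and *UBE2S*. *ANAPC1*, at 18.9 ± 0.938, *CDC23*, at 17.6 ± 0.136, and *CDC16*, at 15.9 ± 1.11 FPKM (SD, n = 3 each), followed without overlap between neighbours. *CDC27* and *FBXO5*, at 12.0 ± 0.642 and 11.7 ± 0.318 FPKM, overlapped with each other. *ANAPC2* and *FZR1* were the lowest, at 4.09 ± 0.607 and 3.87 ± 0.234 FPKM, and overlapped too. With TH588 the lowest member was *FBXO5*, at 2.86 ± 0.261 FPKM, next to *FZR1* at 3.33 ± 0.344 FPKM. These levels rest on the summed exon length of each gene model, from 1286 bases for *UBE2C* to 13987 for *ANAPC1*, and a gene that uses a short isoform is understated.

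*FBXO5* (ENSG00000112029, chromosome 6 of GRCh38, 152970519 to 152983579, minus strand) encodes EMI1, the inhibitor that keeps APC/C silent while DNA is copied. It stood at 46.2, 43.8 and 45.0 CPM in the DMSO libraries (replicates A, B and C in that order, as for all values that follow) and at 10.1, 10.8 and 12.1 CPM with TH588. The groups were far apart and each was tight. *FBXO5* fell to 24.5% of its DMSO level, a log2 fold change of -2.03 (standard error, SE, 0.09 and edgeR adjusted p = 2.28e-08), and only 40 of the 15844 genes tested had a lower value. The change ran from -2.08 to -1.92 over all alternatives. An antisense long noncoding gene shares 4.10% of its exon bases but had a single count in 1 of the 6 libraries.

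*CDC20* (ENSG00000117399, chromosome 1, 43358955 to 43363203, plus strand) encodes the activator of APC/C in early mitosis and is the protein that the spindle checkpoint captures. It was measured at 237, 245 and 245 CPM with DMSO and at 118, 124 and 114 CPM with TH588. Every TH588 library was below every DMSO library. Its level fell to 48.9%, a log2 fold change of -1.03 (SE 0.08, edgeR adjusted p = 5.33e-07). No other gene shares its exon bases, and its annotated copy *CDC20P1* had 0 counts.

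*FZR1* (ENSG00000105325, chromosome 19, 3506273 to 3538330, plus strand), which encodes CDH1, the activator of late mitosis and G1, did not follow. It was at 23.8, 21.1 and 22.5 CPM with DMSO and at 17.3, 21.3 and 19.4 CPM with TH588, so that TH588 replicate B lay inside the DMSO range. The log2 fold change was -0.21, with a 95% interval from -0.44 to 0.01 (edgeR adjusted p = 0.111). Without TH588 replicate B it was -0.29 and passed the threshold (edgeR adjusted p = 0.0482), and its adjusted p ran up to 0.591, with library size only. The opposite-strand gene *MFSD12*, which was not called, shares 1.21% of the exon bases of *FZR1*.

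*UBE2C* (ENSG00000175063, chromosome 20, 45812576 to 45816957, plus strand), the enzyme that starts ubiquitin chains, stood at 128, 157 and 134 CPM with DMSO and at 41.7, 54.6 and 56.6 CPM with TH588. The groups were well separated. It fell to 36.6% of the DMSO level, a log2 fold change of -1.45 (SE 0.12, edgeR adjusted p = 1.27e-06). *UBE2S* (ENSG00000108106, chromosome 19, 55399745 to 55407777, minus strand), which lengthens the chains, stood at 280, 222 and 243 CPM with DMSO and at 149.97, 184 and 136 CPM with TH588. The DMSO libraries ran from 222 to 280 CPM, and the groups did not overlap. It fell to 63.1%, a log2 fold change of -0.66 (SE 0.12, edgeR adjusted p = 0.000585), with values from -0.80 without TH588 replicate B to -0.55 without DMSO replicate A. Reads of annotated copies (*UBE2CP1*, *UBE2CP5*, *UBE2SP1* and *UBE2SP2*) came to at most 0.532% of the counts of their member.

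**Figure D2:**
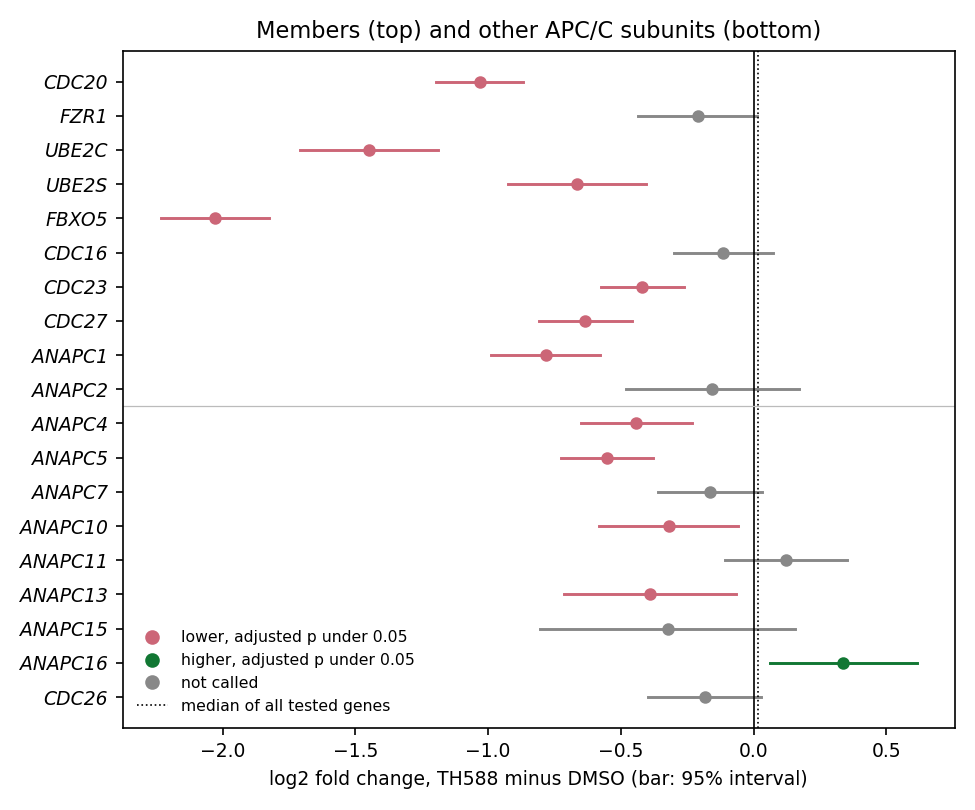
Log2 fold change (TH588 minus DMSO) of the 10 members, above the grey line, and of the 9 other APC/C subunits, below it; bars are 95% intervals from the edgeR fit and the dotted line marks the median of all tested genes, 0.02. *FBXO5* at -2.03 and *UBE2C* at -1.45 stand furthest to the left, and the only called rise is that of *ANAPC16*, at 0.34.

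Of the 5 core subunits among the members, 3 were lower and 2 were not called, against 25.3% lower among all genes tested. Their median log2 fold change was -0.42, against 0.02 over all genes. *ANAPC1* (ENSG00000153107, chromosome 2, 111611639 to 111884690, minus strand), the largest scaffold subunit, stood at 251, 278 and 263 CPM with DMSO and at 175, 144 and 141 CPM with TH588. All TH588 libraries were below all DMSO libraries. Its log2 fold change was -0.78 (SE 0.09, edgeR adjusted p = 2.72e-05). Its copies took reads as well, chiefly *ANAPC1P2*, whose counts came to 6.35% of those of *ANAPC1*. *ANAPC1P2* stood at 4.92 and 4.97 CPM in DMSO replicates A and B but at 17.8 CPM in DMSO replicate C, near the 12.3 to 19.2 CPM with TH588. With the counts of all copies added to their member, an alternative chosen after seeing the data, the log2 fold change of *ANAPC1* was -0.68 and its call held. The noncoding genes that share 2.34% of its exon bases had 0 counts.

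*CDC27* and *CDC23* belong to the arm of the complex built from tetratricopeptide repeats, to which activators bind. *CDC27* (ENSG00000004897, chromosome 17, 47117703 to 47189422, minus strand) stood at 76.9, 84.3 and 84.7 CPM with DMSO and at 56.3, 50.6 and 51.8 CPM with TH588, without overlap. It fell to 64.4% of the DMSO level, a log2 fold change of -0.63 (SE 0.08, edgeR adjusted p = 4.23e-05). *CDC23* (ENSG00000094880, chromosome 5, 138187648 to 138213343, minus strand) was the most even member, at 80.4, 81.6 and 81.4 CPM with DMSO and at 59.8, 61.7 and 60.6 CPM with TH588. It fell to 74.8%, a log2 fold change of -0.42 (SE 0.07, edgeR adjusted p = 0.000419). At its 3′ end it runs into *KIF20A*, a mitotic kinesin gene on the opposite strand that shares 1.47% of its exon bases and was itself lower (log2 fold change -0.34, edgeR adjusted p = 0.00207). The shared part of *CDC27*, 1.85% of its exon bases, belongs to a noncoding gene with at most 2 counts in any library, and its annotated copies had 0 counts.

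*CDC16* (ENSG00000130177, chromosome 13, 114234887 to 114272723, plus strand), a further tetratricopeptide subunit, stood at 57.0, 65.3 and 63.4 CPM with DMSO and at 56.0, 54.1 and 61.4 CPM with TH588, and the groups overlapped. Its log2 fold change was -0.11, with a 95% interval from -0.30 to 0.07 (edgeR adjusted p = 0.293). *ANAPC2* (ENSG00000176248, chromosome 9, 137174784 to 137188549, minus strand), the cullin at the catalytic centre, stood at 25.99, 19.7 and 21.1 CPM with DMSO and at 16.1, 24.4 and 19.1 CPM with TH588. The spread within each group was wider than the distance between them. Its log2 fold change was -0.16, with a 95% interval from -0.48 to 0.17 (edgeR adjusted p = 0.415), and ran from -0.34 without TH588 replicate B to -0.01 without DMSO replicate A. Both intervals lay above the estimate for *CDC27*, -0.63, and that of *ANAPC2* reached below the estimate for *CDC23*, -0.42. The 95% interval of *CDC27* itself, from -0.81 to -0.46, overlapped that of *ANAPC2*, and differences between members were not tested.

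Across the members, 7 of 10 had TH588 libraries that lay below every DMSO library and 0 had the reverse. Among all genes tested, 57.7% had groups that did not overlap, 29% lower and 28.7% higher. The 7 members without overlap were the 7 called lower.

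Ratios within a library do not depend on how libraries are scaled, and 4 were computed. The ratio of *CDC20* to *FZR1* per length, on the log2 scale, was 4.82, 5.05 and 4.95 with DMSO and 4.27, 4.05 and 4.06 with TH588. All 3 TH588 libraries thus had less *CDC20* for each unit of *FZR1*, about 17.5-fold more *CDC20* than *FZR1* in place of 30.7-fold. The difference was -0.81 (exact two-sided permutation test, p = 0.1, n = 3 against 3).

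The ratio of *FBXO5* to *FZR1* had the largest difference of the 4. It was 1.56, 1.65 and 1.60 on the log2 scale with DMSO and -0.18, -0.39 and -0.09 with TH588, a difference of -1.82 (exact permutation test, p = 0.1, n = 3 against 3). The transcript of the inhibitor was thus 3.04 times as abundant per length as that of CDH1 in DMSO cells and 0.859 times as abundant with TH588. The ratio of *UBE2C* to *UBE2S* was -0.01, 0.62 and 0.26 with DMSO and -0.73, -0.64 and -0.14 with TH588, a difference of -0.79. TH588 replicate C and DMSO replicate A lay close to each other in that ratio. The ratio of *CDC20* to the mean of the 5 core subunits differed by -0.59 and was the most even in DMSO cells, with an SD of 0.02 (n = 3), against 0.08 (n = 3) with TH588. All 4 had an exact permutation p of 0.1, also after adjustment over the 4, which is the smallest value that 3 libraries against 3 allow, so none can pass 0.05, and none of the 4 had overlapping groups.

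**Figure D3:**
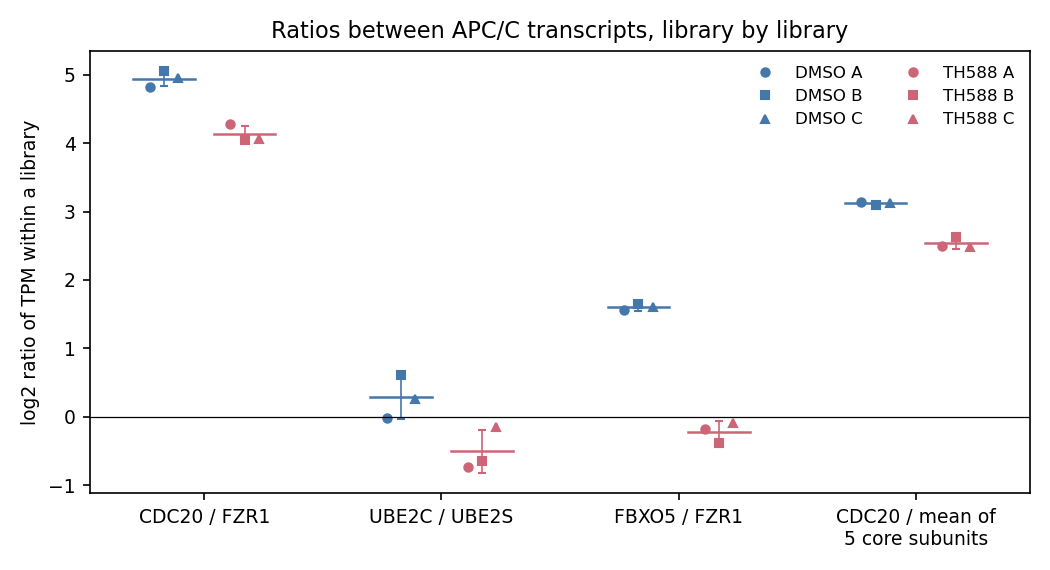
Log2 ratios between transcripts of APC/C genes within each library, from TPM, with means and SD (n = 3); the horizontal line at 0 marks equal levels per length. The *FBXO5* to *FZR1* ratio crosses that line, from a mean of 1.60 with DMSO to -0.22 with TH588.

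The 9 subunits that are not members were read in the same fit. Of these, 4 were lower, 1 was higher and 4 were not called, where 25.3% of all genes tested were lower and 24.2% were higher. Their median log2 fold change was -0.32. *ANAPC5* and *ANAPC4*, which with *ANAPC1* form the scaffold, fell from 151 ± 3.03 to 103 ± 7.36 CPM and from 53.5 ± 3.05 to 39.3 ± 4.63 CPM (SD, n = 3 each). Their log2 fold changes were -0.55 and -0.44 (edgeR adjusted p = 0.000109 and 0.00219). *ANAPC10*, a subunit that helps to hold substrates, and *ANAPC13*, a small structural subunit, were called at log2 fold changes of -0.32 and -0.39, near the threshold, and the groups overlapped for *ANAPC10* (edgeR adjusted p = 0.0431 and 0.0449). The call of *ANAPC10* was lost with library size only and without DMSO replicate A or C or TH588 replicate B or C, and its adjusted p ran from 0.00509 to 0.156 over the alternatives. The call of *ANAPC13* was lost with library size only and without any one library except TH588 replicate A, and its adjusted p ran from 0.00171 to 0.22. *ANAPC16* was called higher (log2 fold change 0.34, edgeR adjusted p = 0.0429), with overlapping groups. Its call was lost with the replicate block and without DMSO replicate B or C or TH588 replicate B or C, and its adjusted p ran from 0.00448 to 0.145.

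The catalytic pair, *ANAPC2* and the RING subunit *ANAPC11*, had log2 fold changes of -0.16 and 0.12, and neither was called. *ANAPC7*, the remaining tetratricopeptide subunit, had a value of -0.16 and *CDC26*, a partner of CDC16, a value of -0.18, and neither was called (edgeR adjusted p = 0.153 and 0.134), although *ANAPC7* passed without TH588 replicate A (edgeR adjusted p = 0.0122). *ANAPC15*, which acts in the turnover of checkpoint complexes, was the least abundant subunit, at 1.98 ± 0.507 FPKM with DMSO (SD, n = 3), and had a value of -0.32 that passed without TH588 replicate A only (edgeR adjusted p = 0.0483). Of all 14 subunits, members included, 7 were lower and 1 was higher, against 25.3% and 24.2% of all genes, and their median was -0.32.

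Proteins that act on APC/C were covered by 14 genes, of which 9 were lower, 2 were higher and 3 were not called. Among all genes tested, 25.3% were lower and 24.2% were higher, and the difference of this list from all genes was not tested. Among the parts of the mitotic checkpoint complex, which holds CDC20 back, *BUB1B* fell from 286 ± 12.0 to 116 ± 13.01 CPM, *MAD2L1* from 51.0 ± 3.21 to 21.5 ± 0.767 CPM and *BUB3* from 105 ± 7.46 to 64.5 ± 3.98 CPM (SD, n = 3 each). Their log2 fold changes were -1.30, -1.25 and -0.70. *TRIP13*, the ATPase that takes the complex apart, fell by 1.13 on the log2 scale, while *MAD2L1BP*, its adaptor, had a value of 0.15 and was not called (edgeR adjusted p = 0.345).

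*CDK1*, the mitotic kinase that primes APC/C for CDC20, showed the largest change of these 14, from 58.8 ± 4.97 to 16.0 ± 2.71 CPM (SD, n = 3 each) and a log2 fold change of -1.86. Its partner *CCNB1* fell less, by 0.62. *PLK1*, which marks EMI1 for destruction, fell by 1.02, and *BTRC*, the ubiquitin ligase subunit that then takes EMI1 up, was called higher at 0.22 with an edgeR adjusted p of 0.0488. That call was lost in 12 of 16 alternatives, with adjusted p-values between 0.0144 and 0.177. *USP37*, a deubiquitinase that protects cyclin A, fell by 0.67, and *OTUD7B*, a deubiquitinase that opposes APC/C chains, rose from 56.8 ± 1.55 to 74.7 ± 5.62 CPM (SD, n = 3 each; log2 fold change 0.39, edgeR adjusted p = 0.00155). *FBXO43*, the relative of *FBXO5* known from egg cells, was low, at 3.12 ± 0.183 CPM with DMSO (SD, n = 3), and fell by 0.87. *UBE2D1*, another enzyme that supplies ubiquitin to APC/C, and *EVI5*, which stabilizes EMI1, had values of -0.04 and 0.01 and were not called.

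Of 26 genes whose proteins APC/C degrades, all 26 were lower and 0 were higher, also with DESeq2 and limma-voom. The share lower among all genes tested was 25.3%, but the list was chosen with earlier results of these data known. The median log2 fold change of the 26 was -1.13. The 4 largest falls were those of *CDC6*, a replication licensing factor (-1.95), *RRM2*, a ribonucleotide reductase subunit (-1.94), *CDC25A*, a phosphatase that activates CDKs (-1.89), and *TK1*, thymidine kinase (-1.62). The mitotic cyclins, named here after their values were seen, fell by 1.58 for *CCNA2*, 0.62 for *CCNB1* and 0.51 for *CCNB2*, and the difference between them was not tested. *PTTG1*, which encodes securin and was singled out after its values were seen, had the smallest fall, from 157 ± 7.001 to 127 ± 19.6 CPM (SD, n = 3 each; log2 fold change -0.30, edgeR adjusted p = 0.0333). Its call was lost with library size only (edgeR adjusted p = 0.33) and without any DMSO library or without TH588 replicate A. *PLK1* and *CCNB1* stand on both lists. RNA levels say nothing of how fast these proteins are degraded, which was not measured here.

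**Figure D4:**
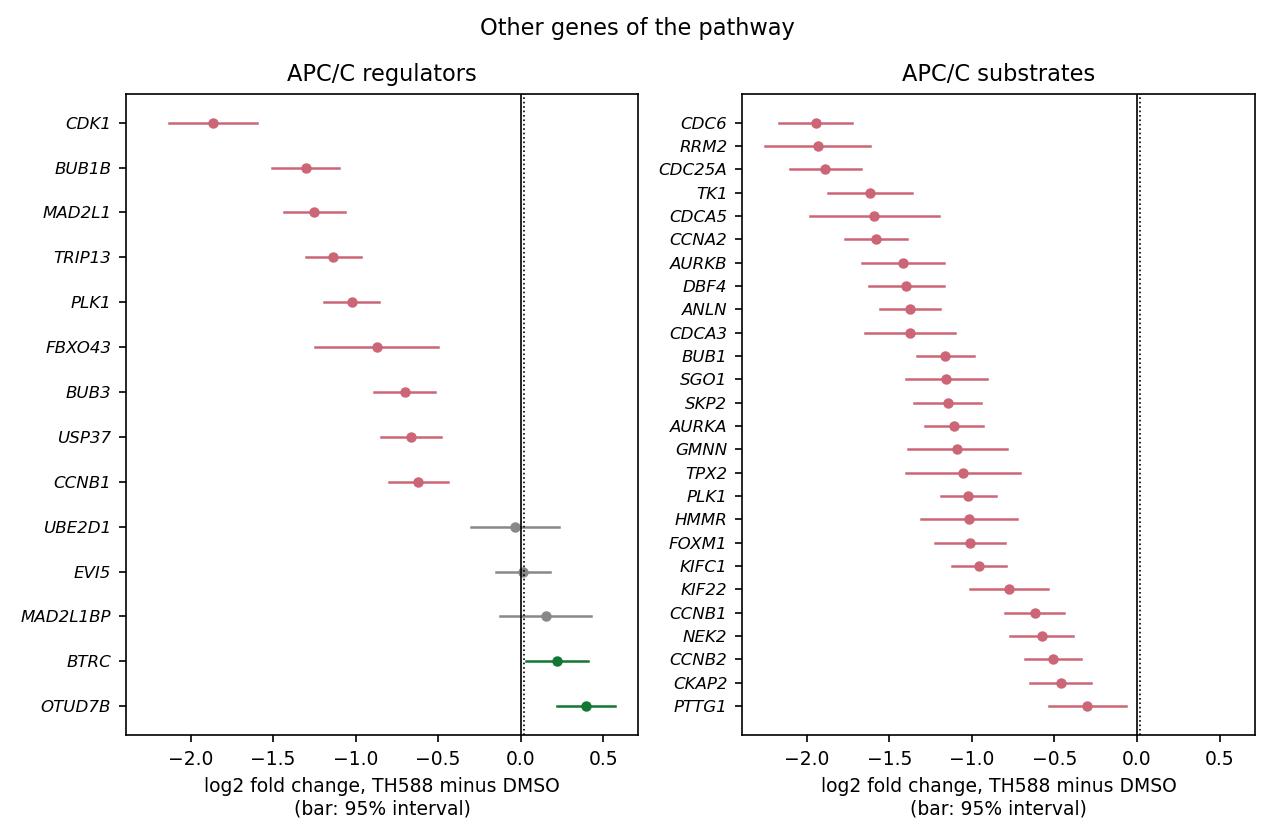
Log2 fold change (TH588 minus DMSO) of 14 genes that act on APC/C and of 26 genes whose proteins it degrades, each list sorted; bars are 95% intervals, red marks genes called lower, green genes called higher and grey genes not called. All 26 substrates lie left of 0, from -1.95 for *CDC6* to -0.30 for *PTTG1*.

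The 7 members called lower passed the threshold in all 16 alternatives, from another normalization or test to the loss of any one library. Their weakest adjusted p over these was 0.0232, for *CDC23* with library size only. *FZR1* passed in 1 of 16 alternatives, and *CDC16* and *ANAPC2* in 0 of 16.

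**Figure D5:**
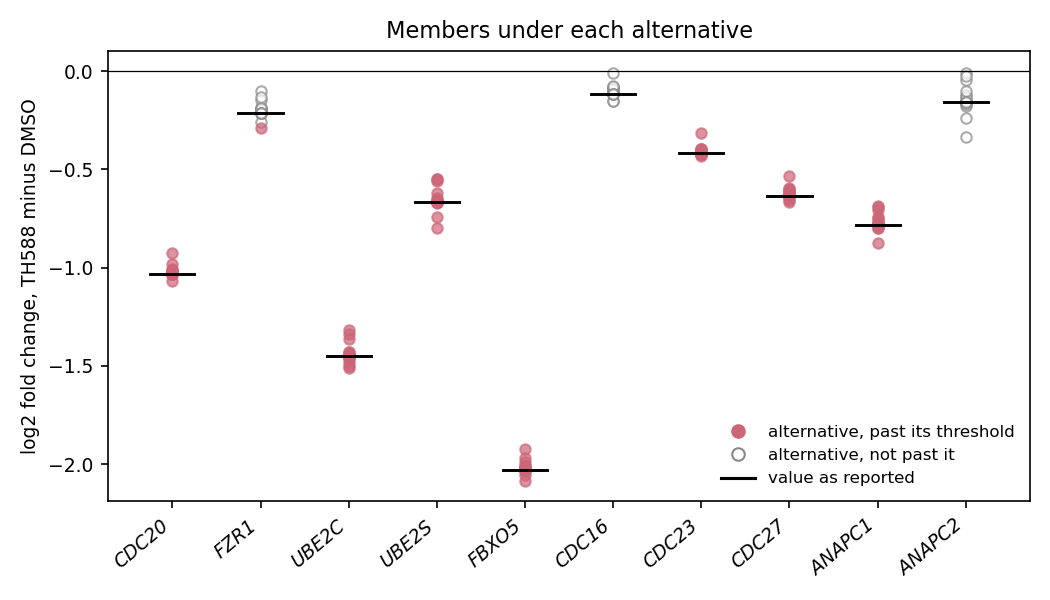
Log2 fold change of each member under each of the 16 alternatives (circles; filled where past that alternative's threshold) and as reported (black bar). *FBXO5* stayed between -2.08 and -1.92, while *ANAPC2* ran from -0.34 to -0.01.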

How the data were processed

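RNA of 6 libraries of A2780 cells was sequenced. Per the labels, the authors aligned reads with TopHat to GRCh38 and counted them per gene with featureCounts 1.4.6; the deposited values are raw counts, 1 column for each library, with the exon length in bases of each gene. The treatment of strand and of reads in several genes is not given in the sources used here, and the kit does not mark strand. Symbols were matched by Ensembl identifier for 57754 of 58336 genes, and the members' positions overlapped those of GENCODE.

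Counts were fitted with edgeR 4.0.16 in R 4.3.3 (TMM, default low-count filter, quasi-likelihood test without a block, Benjamini-Hochberg over 15844 genes). Standard errors are the log2 fold change over the square root of F. DESeq2 1.42.0 and limma-voom 3.58.1 were alternatives, with others of normalization, filter, threshold and libraries. The 10 members and all lists were chosen with earlier results of these data known, and no list was given a set test. Named genes are all members, called subunits and regulators, the 4 largest falls among substrates without overlap, and overlapping genes and copies with at least 10 counts; uncalled subunits and regulators were named to account for each list. Ratios were taken from TPM.

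Replicates of a group differed by more than sampling noise (chi-square per degree of freedom 23.5 to 165) and each counts as 1 sample. The procedure was tested on 8 simulated tables with 200 genes changed by a log2 fold change of 1 among 15540 to 15590 tested. The test recovered 75.7% of these, and 100% of those whose mean log2 CPM reached 5. The uncalled members *FZR1* and *ANAPC2* lay under that level, at 22.5 and 22.3 CPM with DMSO. False calls were 8.40% of all calls, above the nominal share, and 4.36% to 5.11% of unchanged genes had an unadjusted p under 0.05. In the real counts 49.6% of genes were called, far more than were changed here, so the share of false calls may not carry over. A bar of 12% false calls, set for a single table, was missed by it (12.8%) and was replaced, with a first fit of the real counts already seen, by one on unadjusted p-values. The comparison was not changed.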

Additional observations from a re-analysis of the deposited data

How the results depend on the processing

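Outcomes were recomputed under 16 alternatives, and 8 for the ratios. For ratios between single genes, CPM in place of TPM could not change the difference between groups, since gene length cancels. The counts of members lower and higher, of regulators lower and of substrates lower and higher stayed within 1.5 times the reported count in all 16. With library size only, the median of the members was -0.55, that of the 5 core subunits was -0.31 and 2 other subunits were lower; at an adjusted p under 0.01, 2 other subunits were lower. Other subunits called higher numbered 0 with the replicate block and at an adjusted p under 0.01. Regulators called higher numbered 1 with DESeq2 size factors, without the 10 most abundant genes, with DESeq2, limma-voom, no filter, the replicate block, and an adjusted p under 0.01, the call lost being that of *BTRC*. With each library left out in turn, members lower ranged from 7 to 8, the members' median from -0.68 to -0.57, other subunits lower from 2 to 6 and higher from 0 to 1, and regulators higher from 1 to 2. The count of 2 other subunits lower arose without DMSO replicate A or C or TH588 replicate B or C, and that of 0 higher without DMSO replicate B or C or TH588 replicate B or C. The ratio of *CDC20* to the mean core subunit differed by -0.46 from CPM in place of TPM, which weights long genes more. *UBE2D1*, not called, changed sign to 0.066 under library size only, 0.048 without DMSO replicate C and 0.050 without TH588 replicate B, and its lowest value with a library left out was -0.10. The cause was not tested. Among single genes, 37 values lost and 3 gained significance.

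Libraries that share a letter were not treated as pairs in the reported fit. Their deviations from the group mean had correlations of -0.21, -0.25 and -0.01, and 0 of 6 libraries correlated best with their own letter. With 3 libraries per group, this check cannot show that the replicates were unpaired. With the replicate block 7195 genes were called, against 7852, 7129 of them in both, and the members' calls did not change. For the ratios, the block gives the same differences by construction, since a mean of paired differences equals the difference of the group means. Only the test changed (exact sign-flip p = 0.25, the smallest that 3 pairs allow). The smallest count of any member was 270, in TH588 replicate A, the shallowest library, and the effect of depth on the members that were not called was not tested.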
